A study of Mus musculus with 8 samples.

Results

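The genes described here are 10 that encode the enzymes, the sensor and the feedback repressor of bile acid synthesis, out of 31910 genes in the deposited count table. They were chosen by symbol, as the classic and alternative routes of bile acid synthesis, the conjugating enzyme, the farnesoid X receptor FXR (Nr1h4) and the small heterodimer partner SHP (Nr0b2). All 10 symbols have a row in the table. For 9 of them reads were counted in every library, with between 469 and 13613 counts per library, and these 9 passed the filter on low counts. Hsd3b7 is listed at 0 in all 8 libraries and could be followed only in the FPKM table, which gives fragments scaled by transcript length and by library total.

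Bile acids are made from cholesterol in hepatocytes. In the classic route CYP7A1 adds the first hydroxyl group to the sterol ring and sets the rate, and CYP8B1 decides whether cholic acid is formed. In the alternative route CYP27A1 acts first on the side chain and CYP7B1 follows. HSD3B7 and AKR1D1 then remodel the ring, and BAAT joins the finished acid to taurine or glycine. In mice CYP2C70 turns chenodeoxycholic acid into muricholic acids. Bile acids activate FXR, FXR induces SHP, and SHP lowers transcription of Cyp7a1 and Cyp8b1.

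The libraries came from frozen mouse liver, 4 from mice given AAV2/9-Ctrl and 4 from mice given AAV2/9-SA. AAV2/9 is an adeno-associated virus of capsid type 9, which delivers a gene to hepatocytes among other cells. The series title concerns a tetrameric protein of bacterial origin that binds acetyl-CoA carboxylase in steatohepatitis, and the series text gives 4.8e10 vector genomes per mouse by tail vein after 7 weeks of feeding. Feeding schemes in that text are 24 weeks on high fat, 16 weeks on high fat and cholesterol with sugar in the drinking water, and chow, and the labels do not say which of them these mice ate. Strain, age, the promoter in the vector and any pooling of animals are not given in the sources used here. The question was whether the transcripts of bile acid synthesis differed between the livers of the 2 vector groups.

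Total counts were 14114145 to 15922829 in 7 libraries and 28184001 in SA 4. The share of mitochondrially encoded transcripts was 9.23% in Ctrl 4, against 3.55% to 4.87% in each of the remaining 7 libraries. Hepatocyte transcripts were abundant everywhere: 9 of 10 listed hepatocyte markers were in the count table, and their summed level was 79660 to 112148 CPM in Ctrl and 80054 to 99194 CPM in SA. CPM scales the counts of tested genes to a common total of 1e6 after TMM normalization. Summed levels of 8 bile duct markers were 50.4 to 152.3 CPM in Ctrl and 52.1 to 84.3 CPM in SA, and those of 8 stellate cell markers were 386 to 849 CPM in Ctrl and 313 to 391 CPM in SA. In both lists Ctrl 1 and Ctrl 4 were the highest libraries. The 8 macrophage markers summed to 239 to 486 CPM in Ctrl, with Ctrl 4 the lowest, and 397 to 556 CPM in SA. Of the markers of these 4 cell types 1, Lrat of the stellate cells, was listed at 0 counts in every library, although its FPKM was 6.06 to 11.4. In these tissue samples fewer cells of a type and less RNA per cell cannot be told apart.

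None of the 9 counted members differed between SA and Ctrl past the threshold, an adjusted p under 0.05 over all tested genes (edgeR quasi-likelihood test, Benjamini-Hochberg). Of the 12358 genes tested 2 passed, or 0.0162% (1 higher, 1 lower). At an unadjusted p under 0.05 there were 0 members, against 6.21% of all tested genes (2.91% higher and 3.29% lower in SA), and DESeq2 also called 0 members, against 0.346% of all genes with an adjusted p. In 0 of the 9 members did the 4 SA libraries lie wholly above or wholly below the 4 Ctrl libraries, against 3.12% of all tested genes (1.66% above and 1.46% below). The log2 fold changes ran from -0.46 to 0.30, 6 of them positive and 3 negative, with a median of 0.06, beside a median of -0.01 over all tested genes. The members differed from one another in their spread within a group, which was wide in Cyp7a1 and Cyp7b1 and narrow in Baat, Nr1h4 and Cyp27a1.

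**Figure D1:**
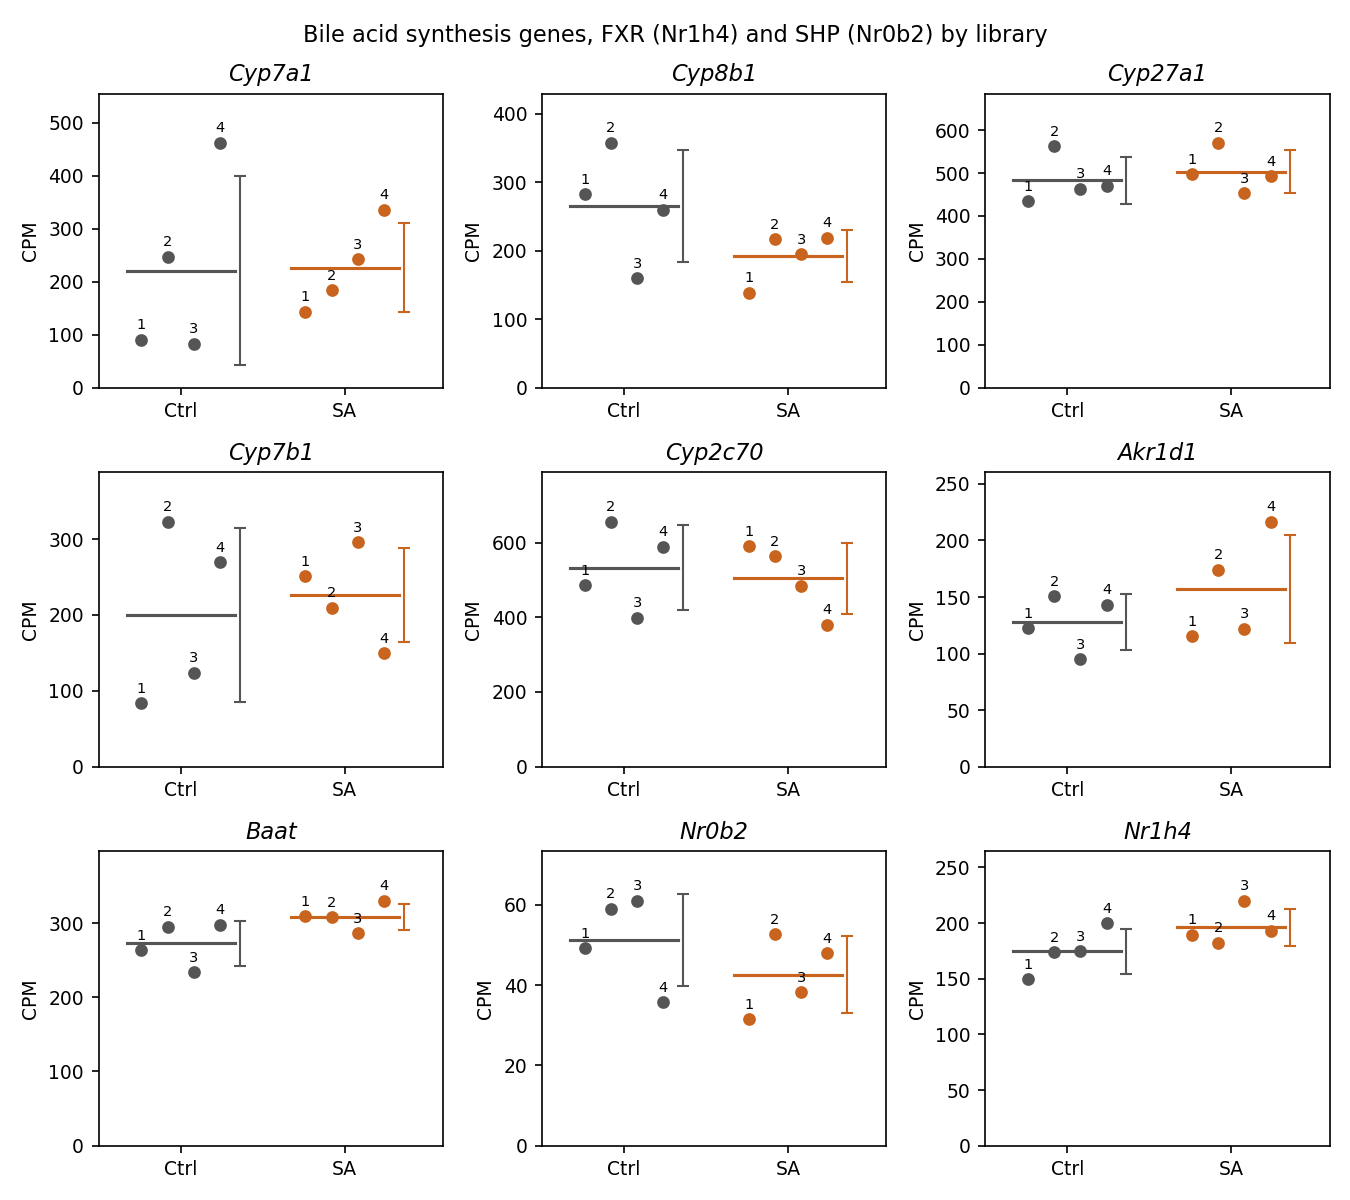
Normalised level (CPM, vertical axis from 0) of the 9 counted members in each library, with the replicate number above each point, the group mean as a line and the SD as a bar (n = 4 per group). Ctrl and SA overlap in every panel, and Cyp7a1 and Cyp7b1 show the widest Ctrl groups.

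Cyp7a1, the rate-limiting enzyme of the classic route (GENCODE M21, GRCm38, chr4:6265612-6275633), was at 90.7, 247.0, 83.2 and 462.3 CPM in Ctrl 1 to 4. In SA 1 to 4 it was at 143.3, 184.2, 242.3 and 336.0 CPM. All 4 SA libraries lay inside the range of the Ctrl libraries, of which Ctrl 4 was the highest and Ctrl 3 the lowest. The 4 Ctrl libraries averaged 220.8 ± 177.8 CPM and the 4 SA libraries 226.4 ± 83.6 CPM (mean ± SD), a log2 fold change of 0.04, with an SE of 0.46 (edgeR, adjusted p = 0.996). The 95% interval of the fold ran from 0.512 to 2.06, so it stopped just short of a halving and took in a doubling. The interval does not give the smallest change that could have passed the threshold, which was not computed. The highest Cyp7a1 level was in Ctrl 4, the library with the high mitochondrial share, and the part of that share in the result was not tested. Without Ctrl 4 the log2 fold change of Cyp7a1 was 0.68, and without Ctrl 3 it was -0.23.

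Cyp8b1, the sterol 12-alpha-hydroxylase that leads to cholic acid (chr9:121914356-121916305), had the lowest unadjusted p of the 9. Its level was 283.0, 358.1, 159.9 and 259.7 CPM in Ctrl 1 to 4. The SA libraries were at 138.6, 217.2, 195.2 and 219.2 CPM. Ctrl 1, Ctrl 2 and Ctrl 4 exceeded every SA library, and Ctrl 3 lay among them. The 4 Ctrl libraries averaged 265.2 ± 81.8 CPM and the 4 SA libraries 192.6 ± 37.6 CPM (mean ± SD), a log2 fold change of -0.46, with an SE of 0.23 (edgeR, unadjusted p = 0.0639, adjusted p = 0.833). The interval of the fold was 0.517 to 1.02. Cyp8b1 had a negative value under each of 18 alternatives, from -0.64 without Ctrl 3 to -0.28 without Ctrl 2, and passed under none of them.

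The promoter of Cyp8b1 is shown with that of Cyp2c70 because they are the 2 members whose window held the HNF4 motif searched for, and the mRNA of that factor is described further on. HNF4 is a liver transcription factor that acts on several genes of this route. RefSeq promoters (GRCm38.p6, 250 bases before to 50 after a RefSeq start site) were at hand for 7 members, and not for Cyp7a1, Cyp7b1 and Baat. These start sites can differ from the ends of the GENCODE positions printed here. The Nr1h4 window, chr10:89506609-89506908, lies wholly inside the GENCODE span of that gene, so it covers an internal start. The RefSeq start site of Cyp2c70 also lies inside its GENCODE span. The capitals mark CAAAGTCCA, and in Cyp8b1 also a TATAAA box. The Cyp8b1 window is chr9:121916256-121916555 and the Cyp2c70 window chr19:40187237-40187536, both on the minus strand and written 5′ to 3′ along the gene.
Cyp8b1: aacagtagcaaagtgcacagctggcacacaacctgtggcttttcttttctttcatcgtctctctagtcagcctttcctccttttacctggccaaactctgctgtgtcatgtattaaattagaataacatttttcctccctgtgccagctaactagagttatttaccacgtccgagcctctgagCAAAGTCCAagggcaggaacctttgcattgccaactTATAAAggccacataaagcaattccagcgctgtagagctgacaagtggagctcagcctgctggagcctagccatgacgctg
Cyp2c70: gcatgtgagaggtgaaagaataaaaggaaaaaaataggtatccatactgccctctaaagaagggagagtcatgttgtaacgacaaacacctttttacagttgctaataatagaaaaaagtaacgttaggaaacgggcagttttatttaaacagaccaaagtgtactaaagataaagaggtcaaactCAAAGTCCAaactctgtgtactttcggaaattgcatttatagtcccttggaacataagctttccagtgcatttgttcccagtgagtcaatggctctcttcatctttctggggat

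The motif CAAAGTCCA began at -67 from the RefSeq start site in Cyp8b1 and at -64 in Cyp2c70, on the strand of the gene in both. It was searched on both strands, and 0.475% of 32851 RefSeq promoters of this length held it. The LRH-1 motif TCAAGGNCA was held by 1.62% and the core of the FXR inverted repeat (IR-1) by 0.0396% of them, each on either strand, and by 0 of the 7 windows. The box TATAAA, searched on the strand of the gene alone, was in 8.32% of all promoters and in those of Cyp8b1 and Nr0b2, at -31 and -28. The motifs did not overlap one another in these windows. A match describes the letters of the window and is not a measured binding site.

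The balance between both classic enzymes was taken as the ratio of Cyp8b1 to Cyp7a1 counts in the same library, which no scaling factor can move. It was 3.12, 1.45, 1.92 and 0.562 in Ctrl 1 to 4. In SA 1 to 4 it was 0.967, 1.18, 0.806 and 0.652. Ctrl 1 to 3 lay above all SA libraries, and Ctrl 4 lay below them all. The log2 ratio averaged 0.57 ± 1.04 over the Ctrl and -0.18 ± 0.36 over the SA libraries (SD, n = 4), a difference of -0.76 (exact two-sided permutation test, p = 0.229, adjusted p = 0.457 over 2 ratios; the smallest p the design allows is 0.0286). With 1 library left out the difference ran from -1.22 to -0.40, and -1.22 was the value without Ctrl 4. Its p of 0.0571 (exact permutation test) is the smallest that 3 against 4 libraries allow. That p followed from leaving out the 1 Ctrl library that broke the separation, so no conclusion is drawn from it.

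**Figure D2:**
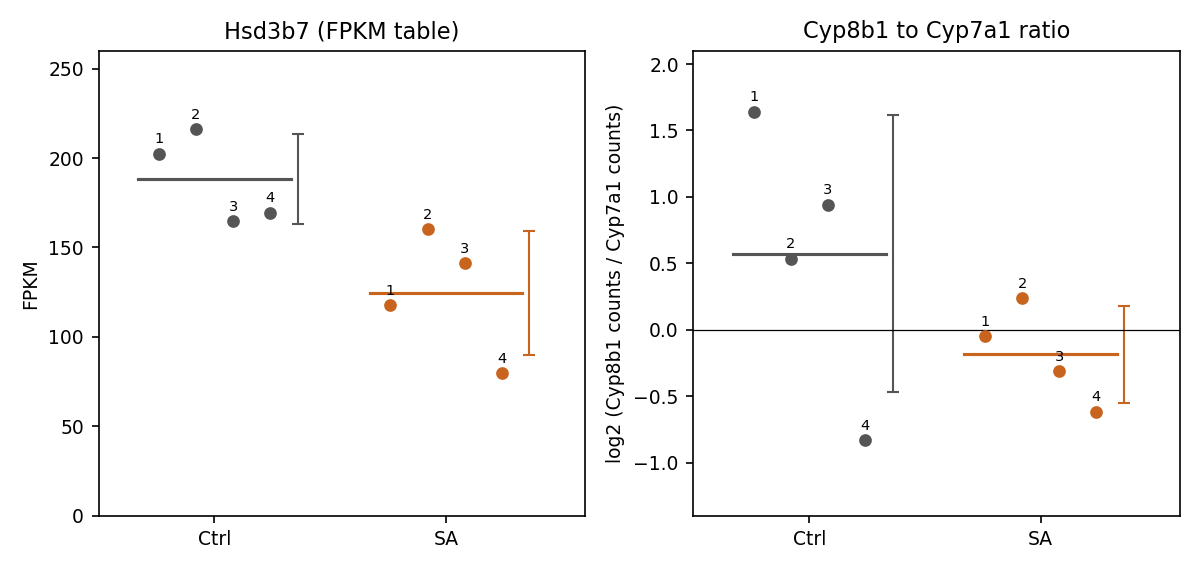
Left, FPKM of Hsd3b7 per library (axis from 0); right, log2 ratio of Cyp8b1 to Cyp7a1 counts per library; points carry the replicate number, lines are group means and bars the SD (n = 4 per group). The Hsd3b7 values do not overlap between the groups, 164.7 to 216.1 FPKM in Ctrl and 79.7 to 160.3 FPKM in SA, while Ctrl 4 lies below all SA libraries in the ratio.

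Cyp27a1, the mitochondrial sterol 27-hydroxylase that opens the alternative route (chr1:74713574-74737892), was even across the libraries. It was at 434.5, 562.7, 463.7 and 470.6 CPM in Ctrl 1 to 4 and at 497.8, 571.2, 453.2 and 492.2 CPM in SA 1 to 4. Ctrl 2 and SA 2 were the highest of their groups, and the groups overlapped throughout. The log2 fold change was 0.06, with an SE of 0.14 (edgeR, adjusted p = 0.996), with a fold interval of 0.839 to 1.296.

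Cyp7b1, the oxysterol 7-alpha-hydroxylase that follows it (chr3:18071950-18243338), varied far more. Ctrl 1 to 4 were at 83.7, 323.1, 124.0 and 269.9 CPM, and SA 1 to 4 at 251.1, 209.8, 295.9 and 149.7 CPM. The Ctrl libraries formed a low pair, 1 and 3, and a high pair, 2 and 4, and all SA libraries lay between the lowest and the highest Ctrl library. The 4 Ctrl libraries averaged 200.2 ± 114.5 CPM and the 4 SA libraries 226.6 ± 62.2 CPM (mean ± SD), a log2 fold change of 0.18, with an SE of 0.36 (edgeR, adjusted p = 0.996; fold interval 0.660 to 1.94). Ctrl 1, the lowest library for Cyp7b1, had the highest summed bile duct and stellate markers. Ctrl 4, the second highest in both sums at 124.6 and 741 CPM, was the second highest Ctrl library for Cyp7b1. The part of these cell types in the spread of Cyp7b1 was not tested. The log2 ratio of Cyp7b1 to Cyp7a1 counts, an index of alternative against classic 7-alpha-hydroxylation, averaged 0.02 ± 0.60 over the Ctrl and 0.03 ± 0.84 over the SA libraries (SD, n = 4), a difference of 0.012 (exact two-sided permutation test, p = 0.943, adjusted p = 0.943).

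Hsd3b7, the 3-beta-hydroxy-C27-steroid dehydrogenase that both routes need (chr7:127800604-127803802), was the one member whose groups did not overlap in a direction lower in SA, and only in FPKM. The values were 202.4, 216.1, 164.7 and 169.4 FPKM in Ctrl 1 to 4. In SA 1 to 4 they were 117.7, 160.3, 141.3 and 79.7 FPKM. SA 4 was the lowest, and the gap between the groups was narrow, from 160.3 in SA 2 to 164.7 in Ctrl 3. The means were 188.2 ± 25.1 FPKM in Ctrl and 124.7 ± 34.7 FPKM in SA (SD, n = 4), a difference of -0.63 ± 0.22 (SE) on the log2(FPKM + 1) scale (limma, unadjusted p = 0.0220, adjusted p = 0.999; interval -1.14 to -0.12). Of 9255 FPKM rows tested 1% lay wholly lower in SA, 3.44% had an unadjusted p under 0.05 and 0.0324% an adjusted one. The result did not pass, and it had no counterpart in counts.

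The 0 counts of Hsd3b7 stood beside an FPKM of at least 79.7 in every library. A further 494 rows of the FPKM table belong to genes listed at 0 in all libraries of the count table, making 495 in all, and 33 of these had at least 50 FPKM in every library. GENCODE M21 places 2 other gene models over Hsd3b7, the protein-coding Gm49388 on the same strand and 9430064I24Rik on the opposite strand, and their part in the missing counts was not tested. Some FPKM values differed widely between libraries, as in Oat, also at 0 counts, which ran from 28.5 to 848 FPKM. Over 61 genes without counts and with a mean of at least 50 FPKM, the highest library was 1.95 times the lowest in the median gene, and 9.84% differed over 10-fold; among 1288 counted genes of that level these values were 1.89 and 10.5%. For Hsd3b7 the factor was 2.71.

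Akr1d1, the 5-beta-reductase of the sterol ring (chr6:37530173-37568815), was at 122.6, 150.8, 94.9 and 143.0 CPM in Ctrl 1 to 4. In SA 1 to 4 it was at 115.4, 174.1, 122.1 and 216.7 CPM. SA 4 and SA 2 exceeded every Ctrl library, while SA 1 and SA 3 lay among them. The log2 fold change was 0.30, with an SE of 0.21 (edgeR, adjusted p = 0.978), the largest positive value of the 9, and 0.09 without SA 4.

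Cyp2c70, the muricholic acid enzyme of mice (chr19:40153353-40187333), was at 486.2, 656.2, 399.1 and 589.3 CPM in Ctrl 1 to 4 and at 590.0, 564.2, 484.4 and 379.5 CPM in SA 1 to 4. SA 4 was the lowest of all libraries. The log2 fold change was -0.08, with an SE of 0.19 (edgeR, adjusted p = 0.996; fold interval 0.710 to 1.26). Cyp2c70 belongs to a family of similar genes, so its count is uncertain where reads could be shared.

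Baat, the bile acid conjugating enzyme (chr4:49489422-49506557), was the steadiest member. It was at 263.2, 295.0, 233.7 and 298.0 CPM in Ctrl 1 to 4 and at 309.0, 307.5, 286.2 and 330.4 CPM in SA 1 to 4. SA 1, SA 2 and SA 4 exceeded every Ctrl library, and SA 3 lay among them. The 4 Ctrl libraries averaged 272.5 ± 30.3 CPM and the 4 SA libraries 308.3 ± 18.1 CPM (mean ± SD), a log2 fold change of 0.18, with an SE of 0.14 (edgeR, adjusted p = 0.989; fold interval 0.923 to 1.39). In FPKM the groups of Baat did not overlap, at 146.9 to 160.9 in Ctrl and 163.2 to 196.2 in SA. With Hsd3b7 this made 2 of the 10 members in FPKM, against 2.05% of all FPKM rows. The FPKM difference of Baat did not pass either, at 0.20 ± 0.11 (SE; limma, adjusted p = 0.999).

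Nr1h4, which encodes the bile acid receptor FXR (chr10:89454234-89533585), was at 149.6, 173.9, 174.5 and 199.9 CPM in Ctrl 1 to 4. SA 1 to 4 were at 189.5, 182.5, 220.2 and 193.0 CPM. Only Ctrl 4 reached into the SA range. The 4 Ctrl libraries averaged 174.5 ± 20.5 CPM and the 4 SA libraries 196.3 ± 16.5 CPM (mean ± SD), a log2 fold change of 0.17, with an SE of 0.14 (edgeR, adjusted p = 0.989; fold interval 0.916 to 1.38).

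Nr0b2, which encodes SHP, the repressor that FXR induces (chr4:133553376-133556536), was at 49.2, 59.0, 61.1 and 35.8 CPM in Ctrl 1 to 4 and at 31.5, 52.7, 38.2 and 48.0 CPM in SA 1 to 4. Ctrl 4 was the lowest Ctrl library and lay below 3 of the 4 SA libraries. The log2 fold change was -0.27, with an SE of 0.20 (edgeR, adjusted p = 0.989), with a fold interval of 0.614 to 1.13. The receptor had a positive value and its induced repressor a negative one, and neither passed.

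**Figure D3:**
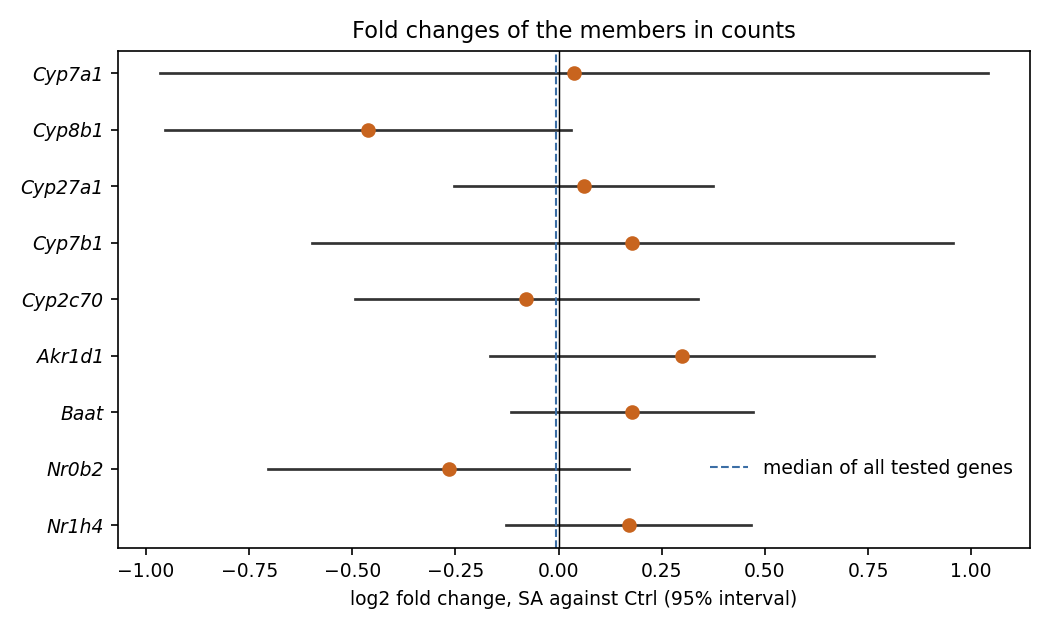
Log2 fold change of SA against Ctrl (horizontal axis) for the 9 counted members, with 95% intervals from the edgeR fit as lines and the median of all tested genes as a dashed line. Every interval includes 0, the widest being that of Cyp7a1, from -0.97 to 1.04.

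Levels of different genes were compared in FPKM, which divides by length, over all 8 libraries. Over these libraries the r between log2 CPM and log2 FPKM ran from 0.50 for Cyp27a1 and Nr1h4 to 0.99 for Cyp7b1. The order given here holds for FPKM alone. Cyp2c70 and Cyp27a1 led, at 333.1 ± 45.9 and 329.5 ± 39.0 FPKM (SD, n = 8), and Cyp2c70 was above Cyp27a1 in 5 of 8 libraries, so their order is not fixed. Cyp27a1 was above Baat in all 8. Baat, Hsd3b7 and Cyp8b1 formed a middle group at 164.5 ± 16.7, 156.5 ± 44.0 and 154.9 ± 39.2 FPKM (SD, n = 8), with Baat above Hsd3b7 in 4 of 8 libraries. Cyp7b1 followed at 124.8 ± 45.3 FPKM and was above Cyp7a1, at 62.0 ± 32.5 FPKM, in 7 of 8. Akr1d1 was at 61.8 ± 19.1 FPKM, not distinguishable from Cyp7a1. Nr0b2 was at 53.2 ± 16.4 FPKM (SD, n = 8), and its order against Cyp7a1 and Akr1d1 is not fixed either, since its median of 57.5 FPKM was above their medians of 56.7 and 55.1 FPKM. Nr1h4 had the lowest mean, at 37.3 ± 7.06 FPKM (SD, n = 8).

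The members differed in how much libraries of the same group varied. The within-group SD of log2 CPM was 0.92 for Cyp7a1 and 0.72 for Cyp7b1, against a median of 0.24 over 7931 genes with a mean of at least 10 CPM. These values stood at percentiles 99.4 and 98.5 of those genes. Without Ctrl 4 they were 0.69 and 0.71, at percentiles 98.5 and 98.7. Cyp8b1 had 0.41 and Akr1d1 0.37, at percentiles 89.1 and 84.5. Nr1h4 had 0.15, Cyp27a1 0.15 and Baat 0.13, at percentiles 13.8, 14.7 and 9.38. Within Ctrl the highest library exceeded the lowest 5.56 times for Cyp7a1 and 3.86 times for Cyp7b1, and within SA 2.34 and 1.98 times. Percentiles and factors are descriptions, since the labels give no reason for the spread.

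**Figure D4:**
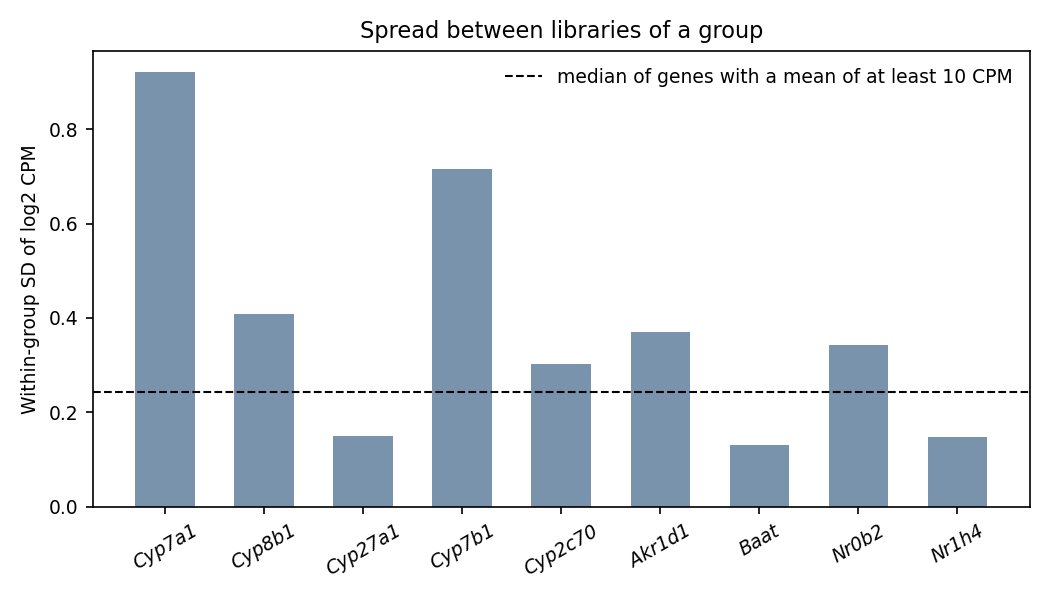
Within-group SD of log2 CPM (vertical axis from 0, 8 libraries in 2 groups) for each counted member as bars, with the median of genes with a mean of at least 10 CPM as a dashed line. Cyp7a1 at 0.92 and Cyp7b1 at 0.72 stand far above the median of 0.24, and Baat at 0.13 stands below it.

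Part of the Ctrl spread followed the same libraries. For 6 of the 9 members, Cyp7a1, Cyp27a1, Cyp7b1, Cyp2c70, Akr1d1 and Baat, Ctrl 2 and Ctrl 4 were the 2 highest Ctrl libraries, an order seen after the values were known and met by 12.7% of all tested genes. Summed pericentral hepatocyte genes, listed because Cyp7a1 belongs to the hepatocytes around the central vein, were also highest there, at 16637 and 15739 CPM in Ctrl 2 and Ctrl 4, against 10614 and 10480 CPM in Ctrl 1 and Ctrl 3 and 10973 to 12896 CPM in SA. Summed bile salt carriers were at 3833 and 4996 CPM in Ctrl 2 and Ctrl 4 and at 2592 and 2281 CPM in Ctrl 1 and Ctrl 3. Most of the pericentral sum was Cyp2e1, at 11706 and 12645 CPM in Ctrl 2 and Ctrl 4. Rgn, at 1737 and 1311 CPM, and Slc1a2, at 265.3 and 263.3 CPM, had the same 2 highest Ctrl libraries. Glul and Axin2 were lowest of the Ctrl libraries in Ctrl 4, at 1116 and 6.89 CPM, and Cyp1a2 and Lect2 were below Ctrl 2 and 1 other Ctrl library there, at 299.7 and 97.1 CPM, so the listed genes did not move as one in Ctrl 4. Most of the carrier sum was Slco1b2, at 2279 and 3115 CPM in these libraries. The part of zonal composition in the members' spread was not tested.

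Relations between members were examined over the 8 libraries for 4 pairs, as log2 CPM. SHP and Cyp7a1 had a Pearson r of -0.35 (exact permutation p = 0.381, adjusted p = 0.396 over 4 pairs) and a Spearman rho of -0.38 (exact permutation p = 0.360, adjusted p = 0.480). Leaving out SA 1 and Ctrl 4, the libraries farthest from the median of Nr0b2, gave r = -0.40. SHP and Cyp8b1 had r = 0.39 (exact permutation p = 0.339, adjusted p = 0.396) and rho = 0.26 (exact permutation p = 0.536, adjusted p = 0.536), and r = 0.17 without the same 2 libraries. Cyp7a1 and Cyp8b1 had r = 0.35 (exact permutation p = 0.396, adjusted p = 0.396) and rho = 0.45 (exact permutation p = 0.267, adjusted p = 0.480), and r = 0.55 without Ctrl 1 and Ctrl 3. Cyp7a1 and Cyp7b1 had r = 0.64 (exact permutation p = 0.0891, adjusted p = 0.356) and rho = 0.60 (exact permutation p = 0.132, adjusted p = 0.480). Without Ctrl 1 and Ctrl 3 that r was -0.11, so the relation rested on those 2 libraries. None of the 4 passed.

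The genes whose log2 CPM followed Cyp7a1 most closely over the 8 libraries were Abcd3, Grsf1 and Stard7, with Pearson r of 0.96, 0.96 and 0.95. They were picked as the highest of 7791 candidates with a mean of at least 10 CPM, so these r are descriptions. Abcd3, a transporter of the peroxisomal membrane, peaked at 967 CPM in Ctrl 4 and was lowest, at 564 CPM, in Ctrl 3, the same highest and lowest library as Cyp7a1. For Nr0b2 the closest were Stip1, Aven and Spring1, with r of 0.94, 0.93 and 0.92.

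The other genes of the route did not pass either. Of 12 genes listed for the side chain and later steps 11 were tested, 0 passed in either direction, and their median log2 fold change was 0.02. Acox2, the peroxisomal oxidase that shortens the side chain of bile acid intermediates, had SA libraries wholly above the Ctrl libraries, as did 1.66% of all tested genes. It was at 215.4, 256.7, 213.5 and 195.0 CPM in Ctrl 1 to 4 and at 301.9, 260.7, 259.6 and 306.9 CPM in SA 1 to 4, a log2 fold change of 0.36, with an SE of 0.14 (edgeR, unadjusted p = 0.0239, adjusted p = 0.698). Cyp39a1, an oxysterol 7-alpha-hydroxylase, had 0.48, with Ctrl 2 lowest at 7.79 CPM and SA 4 highest at 50.3 CPM. Cyp3a11 had -0.37 and Acot8, a peroxisomal thioesterase, 0.15. Ch25h had at most 9 counts in a library and was not tested.

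Among 16 regulators of bile acid synthesis, all tested, 14 had a positive and 2 a negative value, with a median of 0.17, and 0 passed (edgeR). Of all tested genes 6014 of 12358 were positive. At an unadjusted p under 0.05 there were 2 regulators, both higher, against 2.91% of all tested genes. Hnf4a, which encodes HNF4 alpha, was at 412.4, 399.2, 527.5 and 453.9 CPM in Ctrl 1 to 4. In SA 1 to 4 it was at 527.9, 811.6, 673.7 and 720.1 CPM. The groups were separated only narrowly, by SA 1 against Ctrl 3, and the log2 fold change was 0.61, with an SE of 0.17 (edgeR, unadjusted p = 0.00313, adjusted p = 0.425). Nr1i3, which encodes the xenobiotic receptor CAR, was at 8.32, 12.9, 12.3 and 8.33 CPM in Ctrl 1 to 4 and at 15.0, 20.5, 19.0 and 19.2 CPM in SA 1 to 4. In counts each SA library of Nr1i3 exceeded each Ctrl library, a separation in that direction met by 1.66% of all tested genes. The log2 fold change of Nr1i3 was 0.82, with an SE of 0.19 (edgeR, adjusted p = 0.342; DESeq2, adjusted p = 0.0494). In FPKM its groups overlapped, at 12.2 to 28.7 in Ctrl and 16.2 to 36.1 in SA, and the difference was 0.44 on the log2(FPKM + 1) scale (limma, unadjusted p = 0.222). The FPKM groups of Hnf4a overlapped too, with a difference of 0.76. Rxra, the partner of FXR in its dimer, had 0.32 (edgeR, adjusted p = 0.833), and Nr1i2 0.26. Fgf15, the gut hormone that represses Cyp7a1 in liver, was at 0 counts in all 8 libraries. It had no FPKM to set beside this 0, as Hsd3b7 had, so absence of the transcript is not shown.

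Hepatic targets of FXR had 7 of 10 listed genes tested, 6 positive and 1 negative, with a median of 0.23 and 0 past the threshold. Sdc1 had 0.26, Pltp 0.31 and the canalicular pump Abcc2 0.27, while Abcb4, the phospholipid flippase of bile, had -0.22 (edgeR, adjusted p = 0.939, 0.953, 0.978 and 0.953). Slc51a and Slc51b, the basolateral bile acid exporter that rises in cholestasis, had at most 1 and 5 counts in a library. Of 6 bile salt carriers 0 passed with edgeR. Abcc4, a basolateral efflux pump, ranged over 4.89 to 6.17 CPM among the Ctrl and 6.51 to 25.3 CPM among the SA libraries, with SA 2 and SA 4 highest. Its log2 fold change was 1.54, with an SE of 0.36 (edgeR, adjusted p = 0.342), and it passed with DESeq2 (adjusted p = 0.0106) and without SA 1 (1.81; edgeR, adjusted p = 0.0285). Abcc4 did not pass with limma-voom (adjusted p = 0.611), with the replicate block (edgeR, adjusted p = 0.480), without SA 2 (1.27; edgeR, adjusted p = 0.766) or without SA 4 (1.31; edgeR, adjusted p = 0.650). Abcc3 had 0.17, Slco1b2 -0.22 and Slco1a4 -0.51.

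In the zonal lists 0 genes passed in either direction. Of 7 tested pericentral genes 4 were negative, with a median of -0.16, among them Glul, glutamine synthetase, at -0.30, Lect2 at -0.31 and Rgn at -0.22, while Cyp1a2 had 0.42. The values of Glul, Lect2 and Rgn leaned on Ctrl 2, the highest Ctrl library of all 4 genes, while that of Cyp1a2 rose without it. Without it Glul had -0.04, Lect2 -0.07, Rgn -0.04 and Cyp1a2 0.77 (edgeR, unadjusted p = 0.00161 and adjusted p = 0.193 for Cyp1a2). Of 8 periportal genes 6 were positive, with a median of 0.18, among them Arg1 at 0.28, Cyp2f2 at 0.28, Hal at 0.28 and Pck1 at 0.23.

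Markers of the cell types of the liver had 0 genes past the threshold in each list. Of 9 tested hepatocyte markers 7 were positive, with a median log2 fold change of 0.08. Of 7 tested bile duct markers 6 were negative, with a median of -0.85, and 3 had an unadjusted p under 0.05, all lower. All 7 tested stellate markers were negative, with a median of -0.67, and 4 had such a p. All 8 macrophage markers were positive, with a median of 0.27, and 1 had such a p. Their summed level was lowest in Ctrl 4, at 239 CPM, against 414 to 486 CPM in Ctrl 1 to 3. Of all tested genes 6014 of 12358 were positive. At an unadjusted p under 0.05, 3.29% of all tested genes were lower and 2.91% higher in SA (edgeR). The part of these cell types in the members' values was not tested.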

How the data were processed

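RNA from 8 samples of frozen mouse liver was sequenced with a NEBNext Ultra kit that the labels do not call strand-specific. The submitters' processing notes name the tools StringTie 2.2.1, HISAT2 and FastQC 0.19.7 and the builds GRCm39 and mm10, with no role for either build. The sources used here do not give the counting program. The deposited count table holds whole-number counts per gene without normalization, and the deposited FPKM table holds 9265 rows, computed by the authors. Positions printed come from GENCODE M21 (GRCm38). Columns were matched to samples by the number in each sample's description.

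For the counts edgeR 4.0.16 (R 4.3.3) was run, by its quasi-likelihood F test, with TMM factors and filterByExpr, which left 12358 genes, without a block. SE and 95% intervals were derived from the F statistic. FPKM was tested with limma 3.58.1 on log2(FPKM + 1), for rows of at least 0.5 FPKM in at least 4 libraries, a scale that understates changes of low genes. Ratios and correlations were tested exactly with SciPy 1.17.1. The fits were also run on simulated data in which genes varied independently. Shifts shared by many genes of a library were not covered. Every pair of libraries differed beyond sampling noise (chi-square at least 24.6 per degree of freedom). Whether each sample is a separate animal is not stated in the labels, and p-values cover the spread between samples, which may be technical.

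The members and 11 lists of 95 genes in all were chosen with earlier results of these data known. The text names all members, up to 4 genes of the smallest p in each pathway and zonal list (cell type markers as counts), and the 3 genes most like Cyp7a1 and Nr0b2. Genes named outside this rule (Oat, Lrat, Ch25h, Slc51a, Slc51b, Cyp2e1, Slc1a2, Axin2) were chosen after their values were seen. Fgf15, the only gene of its list, was not tested and is named without a p. Alternatives were RLE and upper quartile factors, DESeq2 1.42.0, limma-voom, other filters, FPKM with pseudocounts of 1 and 0.1, leaving out each library, and a block by replicate number. Leave-one-out fits of the FPKM of Hsd3b7 and the spread without Ctrl 4 were added after seeing the data.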

Additional observations from a re-analysis of the deposited data

Results flagged for a closer look

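Of 72 groups of 4 libraries examined for a library far from the other 3, 1 had such a library, where chance flags about 1 in 20. Pltp, a phospholipid transfer protein and FXR target, was at 62.2 CPM in Ctrl 1 and at 41.8 to 43.3 CPM in the other Ctrl libraries.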

How the results depend on the processing

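None of the members passed under any of the 18 alternatives (edgeR, DESeq2, voom or limma), and their lowest adjusted p was 0.470, for Cyp8b1 without Ctrl 3. Of the 9 counted members 5 kept their direction throughout, and 7 of 162 values turned. Cyp7a1 ran from -0.23 to 0.68 when 1 library was left out, negative without Ctrl 1 (-0.22), Ctrl 3 (-0.23) or SA 4 (-0.23). Cyp7b1 ran from -0.088 without Ctrl 1 to 0.51, Cyp2c70 from -0.19 to 0.041, positive without Ctrl 2 or SA 4 (0.027), and Cyp27a1 from -0.0044 without SA 2 to 0.15. Hsd3b7 ran from -0.76 to -0.43 in FPKM. The ratio of Cyp7b1 to Cyp7a1 had differences of -0.25 to 0.41 with 1 library left out, and turned negative without Ctrl 1, Ctrl 4, SA 1, SA 2 or SA 3. The ratio of Cyp8b1 to Cyp7a1 ran from -1.22 to -0.40. The correlation of Cyp7a1 with Cyp7b1 turned to -0.11 without the 2 farthest libraries.

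Over all genes 2 passed in the edgeR fit, 60 with DESeq2 (23 higher, 37 lower), 8 without a low-count filter (3 higher, 5 lower) and 0 to 19 with 1 library left out, 0 without Ctrl 4, 1 without Ctrl 1, SA 2, SA 3 or SA 4 and 19 without SA 1. The causes were not tested. Same-numbered libraries did not deviate together in a common direction (r = -0.22 to 0.22 over 4 pairs). No pairing by number was seen, and 4 pairs are too few to exclude one. With the replicate block 6 genes passed (1 higher, 5 lower), and the block changed no call among the members. The ratio differences within replicate numbers were -0.76 and 0.012 (exact sign-flip test, p = 0.25 and 1.0, smallest possible 0.125).

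With FPKM Acot8 had -1.705 (-2.15 at a pseudocount of 0.1), Rxra -0.21 and Slco1b2 0.40 (0.62 at 0.1), each opposite to the counts. Acot8 ran from -0.015 without Ctrl 4 to 0.35 and Slco1b2 from -0.40 to 0.033 without Ctrl 4. Cyp1a2 reached 1.89 and Cyp2f2 1.45 in FPKM. Per library, the departures from each gene's mean in FPKM and in counts had r = 0.27 to 0.47 across 7940 genes, which are not independent replicates.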
